A study of Mus musculus with 12 samples.

Results

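Serum amyloid A, lipocalin 2, haptoglobin, the orosomucoids and lactotransferrin are secreted proteins of the acute phase, the change in protein output that follows infection or tissue injury. They were followed in mouse mammary tissue as 8 genes: Saa1, Saa2, Saa3, Lcn2, Hp, Orm1, Orm2 and Ltf, of 23301 gene names found in all the files. The genes were taken by name. Saa1 and Saa2 were chosen by their FPKM in Tumor, which was far above that in Normal, so the difference between Tumor and Normal is described below without a test for any of the 8 genes. The difference between C646 and DMSO was not used to choose them and was tested.

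Gene expression was measured by RNA-seq in 12 libraries, 3 in each of 4 groups, from female mice that were 12 weeks old. The Normal group was untreated mammary gland of wild-type FVB mice, in which each replicate mixed abdominal and inguinal glands of 3 mice. The Tumor group was untreated mammary tumor of MMTV-PyVT mice, in which the mouse mammary tumor virus promoter drives the polyoma virus middle T antigen in mammary epithelium, and each replicate was a thoracic gland tumor of 1 mouse. The DMSO and C646 groups were tumors of MMTV-PyVT mice injected with DMSO, a solvent, or with C646, an inhibitor of the histone acetyltransferase p300; the labels give 1 mg/kg for both, and the largest tumors were sequenced. Genotype, gland position and pooling all differ between Normal and Tumor and cannot be told apart.

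In an infection or injury, the cytokines interleukin 6 and interleukin 1 act through STAT3, NF-kappaB and C/EBP transcription factors, and the liver releases acute-phase proteins into the blood. Mouse Saa1 and Saa2 are the circulating serum amyloid A proteins of high-density lipoprotein, whereas Saa3 is made mainly outside the liver. Lipocalin 2 captures bacterial siderophores and so keeps iron from microbes, and lactotransferrin binds iron itself in milk and in neutrophil granules. Haptoglobin binds free hemoglobin, and the orosomucoids are acid glycoproteins that carry lipophilic molecules in plasma. Mammary epithelium is a known source of Lcn2, Ltf and serum amyloid A when the gland involutes, and white fat is a known source of Hp and Orm1.

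The serum amyloid A genes form 1 cluster. On the mm10 assembly (GRCm38, GENCODE vM21), Saa3 lies at chr7:46711998-46715700 on the minus strand, Saa1 at chr7:46740497-46742980 on the minus strand and Saa2 at chr7:46751790-46754313 on the plus strand, so that Saa1 and Saa2 point away from each other with starts 8809 bases apart. Orm1 at chr4:63344560-63348163 and Orm2 at chr4:63362449-63365878 are also neighbours, with Orm3 between them. The other members are single: Lcn2 lies at chr2:32384633-32388252, Hp at chr8:109575128-109579172 and Ltf at chr9:111019271-111042767. The first GENCODE transcripts of Saa1 and Saa2 were 94.4% identical over 606 aligned bases, and those of Orm1 and Orm2 91.0% identical over 775. No stretch of 125 bases of the Saa1 transcript recurred in Saa2, and 17 of 651 stretches of Orm1 recurred in Orm2. How shorter or mismatched reads were divided between such pairs was not tested.

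RefSeq promoter windows (GRCm38.p6) matched 6 of the 8 genes, all but Hp and Orm1. The sequences below are shown because Saa1, Saa2 and Saa3 were the genes listed at or near 0 in Normal and detected in every tumor, and because Orm2 was lower in Tumor. Each runs 5′ to 3′ on the strand of its gene, from 250 to 51 bases before the RefSeq start, and capitals mark TTNNGNAA, a degenerate form of the C/EBP palindrome, on either strand. The positions are chr7:46743031-46743230 for Saa1 (minus strand), chr7:46751583-46751782 for Saa2 (plus strand), chr7:46715727-46715926 for Saa3 (minus strand) and chr4:63362199-63362398 for Orm2 (plus strand).
Saa1: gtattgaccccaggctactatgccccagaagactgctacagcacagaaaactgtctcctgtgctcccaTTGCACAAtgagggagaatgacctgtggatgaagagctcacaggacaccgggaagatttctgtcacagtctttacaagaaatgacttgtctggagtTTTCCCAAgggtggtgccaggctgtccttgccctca
Saa2: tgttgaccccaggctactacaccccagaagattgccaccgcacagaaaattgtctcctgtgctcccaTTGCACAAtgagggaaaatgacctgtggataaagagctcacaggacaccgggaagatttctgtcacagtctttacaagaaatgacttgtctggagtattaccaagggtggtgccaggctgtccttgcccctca
Saa3: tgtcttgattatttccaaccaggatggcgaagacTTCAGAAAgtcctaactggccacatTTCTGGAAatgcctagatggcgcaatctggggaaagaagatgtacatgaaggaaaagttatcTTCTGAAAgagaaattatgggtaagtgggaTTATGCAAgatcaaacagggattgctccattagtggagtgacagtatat
Orm2: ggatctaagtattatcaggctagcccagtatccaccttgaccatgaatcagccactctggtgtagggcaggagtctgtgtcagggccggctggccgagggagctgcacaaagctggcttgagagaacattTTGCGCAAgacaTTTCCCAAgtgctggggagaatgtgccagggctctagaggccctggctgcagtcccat

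Over the whole 250 bases before the start, TTNNGNAA was present in all 6 windows, against 36.8% of 32851 RefSeq windows of the same length. It occurred at 4 places in Saa3, at 2 places each in Saa1, Ltf and Orm2, and at 1 place each in Saa2 and Lcn2. The copy nearest to the start of Saa1, 86 to 79 bases before it, had no counterpart in Saa2, although their windows were 95.6% identical over 249 aligned bases. The windows of Saa1 and Saa3 were 66.5% identical. None of the 6 windows held an exact match to the NF-kappaB consensus GGGRNWYYCC (3.90% of all windows) or to TTCNNNGAA, the STAT palindrome (7.02%). TATAAA was found only in Orm2 (12.4% of all windows). Looser forms of these sites, and sites farther from the start, were not searched. TTNNGNAA was present in members that were higher in Tumor and in Orm2, which was lower.

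Levels are given as FPKM, a fragment count scaled to transcript length and library size. The FPKM files hold no read counts and the depth is unknown. From the steps between low values, the injected tumors had between 0.923 and 1.29 times the depth of DMSO replicate 1, and Tumor replicates 2 and 3 had 1.62 and 1.53 times the depth of Tumor replicate 1. These ratios are rough, since for some pairs few low values lay at the most common ratio. That share was 11.8% for Tumor replicates 1 and 2 and 36.7% for 1 and 3. For DMSO replicate 1 against the other injected tumors it was 17.2% to 53.6%. Between 11853 and 12792 gene names reached 1 FPKM in a library. The housekeeping gene Gapdh was listed at 0 to 0.194 FPKM in the Normal and Tumor libraries and at 2.11 to 19.9 in the injected tumors, while Actb was between 741 and 1499 in all 12, so a gene listed at 0 here may be a failed estimate. The kit did not mark strand, so reads from an antisense transcript are not separated from those of the gene.

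The mammary label was checked against cell type markers. The 10 luminal epithelial markers, led by Krt18 and Krt8, summed to between 485 and 1019 FPKM in Normal and between 3233 and 4652 in the tumors of all 3 groups. The 10 adipocyte markers, led by Fabp4 and Cfd, summed to between 27451 and 34795 in Normal and between 76.8 and 2671 in tumors. Hepatocyte markers were low in the tumors: Alb, the plasma albumin gene, was between 8.89 and 10.5 FPKM in Normal and listed at 0 in all 9 tumors, and Ttr was listed at 0 in all 12 libraries. The hepatocyte sum of 790 to 1005 in Normal was nearly all Cyp2e1, which was between 777 and 995 there. The 11 neutrophil markers with a row in all libraries summed to between 18.6 and 32.2 in Normal, between 83.9 and 294 in Tumor, between 68.5 and 674 with DMSO and between 74.3 and 93.4 with C646. S100a8, which made up most of the sum in the tumors, was between 2.49 and 8.39 in Normal and between 76.4 and 275 in Tumor (log2 difference 4.91, adjusted p = 0.000309, limma). Of 12 neutrophil markers, 5 were tested in Tumor against Normal, with 1 higher and 2 lower. The lower ones were Mmp9 (log2 difference -4.10, adjusted p = 0.000278, limma) and Cxcr2 (-3.93, adjusted p = 0.00576, limma). Both stayed under 1 FPKM in every Tumor library and were tested through Normal alone, so only a fall could be called. The granule gene Elane was between 0.612 and 1.37 in Normal and listed at 0 in all 9 tumors, and Ngp and Camp did not pass 1.26 and 0.823 in Normal or 0.198 and 0.392 in the tumors. The part of these cells in the levels of the 8 genes was not tested. In bulk tissue, fewer cells of a type and less RNA per cell cannot be told apart.

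Saa1 was listed at 0, 0.345 and 0 FPKM in Normal replicates 1 to 3 and at 1632, 1591 and 465 in the Tumor replicates. Saa2 was listed at 0, 0 and 0.372 in Normal and at 1174, 1516 and 401 in Tumor. Both genes were thus listed at 0 or below 0.4 FPKM in each Normal library and were abundant in each Tumor library, where Saa1 ranked between 67 and 184 of 23704 names. In the injected tumors Saa1 was at 202, 649 and 1551 with DMSO and at 524, 491 and 744 with C646. Saa2 was at 119, 413 and 1289 with DMSO and at 422, 495 and 522 with C646. No tumor of the 9 was at the Normal level for either gene. No fold change is given, since 2 of the 3 Normal libraries were at 0 for each.

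Saa3, the member of the family made mainly outside the liver, was far lower than Saa1 and Saa2 in every tumor. It was listed at 0.498, 0 and 0.211 FPKM in Normal and at 33.3, 87.8 and 7.53 in Tumor, again without overlap. It was at 8.08, 17.2 and 55.7 with DMSO and at 9.46, 8.55 and 19.4 with C646. Saa1 was between 18.1 and 61.7 times Saa3 in the same tumor and between 0.993 and 1.69 times Saa2, so Saa1 and Saa2 were nearly level per length of transcript while Saa3 was an order below. Saa4, a further gene of the cluster, was listed at 0 in 11 of the 12 libraries and at 0.148 in DMSO replicate 3.

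Lcn2 had the highest level of the 8 genes in each of the 9 tumors, while in each Normal library Hp and Orm1 were above it. It was at 119, 98.9 and 135 FPKM in Normal and at 8476, 7116 and 12509 in Tumor, or 118 ± 18.2 (SD, n = 3) against 9367 ± 2805. The ratio of the means was 79.6, and the lowest Tumor library was 52.6 times the highest Normal one. Lcn2 was at 13090, 7267 and 7059 with DMSO and at 6816, 5996 and 6487 with C646. It was the most abundant of all named genes in 5 of the 6 injected tumors, ranked 2 in DMSO replicate 3, and ranked 4, 5 and 2 in Tumor replicates 1, 2 and 3, whereas in Normal it ranked between 619 and 959. The 8 genes together took between 0.104% and 0.126% of the named FPKM in Normal, between 1.64% and 2.32% in Tumor, between 1.59% and 2.39% with DMSO and between 1.44% and 1.57% with C646.

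Ltf was at 24.7, 28.6 and 41.6 FPKM in Normal and at 749, 754 and 453 in Tumor, with means of 31.6 ± 8.88 and 652 ± 173 and a ratio of 20.6. With DMSO it was at 167, 404 and 487, and with C646 at 381, 566 and 362. Each tumor was above each Normal library. Like Lcn2, the gene was already readily detected in the normal gland, unlike the serum amyloid A genes.

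Hp and the orosomucoids had the opposite pattern. Hp was at 225, 349 and 298 FPKM in Normal and at 267, 21.1 and 33.2 in Tumor, so Tumor replicate 1 lay within the Normal range and the groups overlapped. Orm1 was at 174, 236 and 204 in Normal and at 14.96, 5.59 and 1.39 in Tumor, and the ratio of means was 28.03 in favour of Normal. With 1 library left out, that ratio ran from 19.95 without Tumor replicate 3 to 58.7 without Tumor replicate 1. Orm2 was at 3.46, 3.46 and 4.45 in Normal and at 1.03, 1.01 and 1.66 in Tumor, 3.07 times lower by the means. That size depended on the processing, with a log2 difference of -1.62, -2.56 when only the highest of its rows was used and -0.99 after quantile normalization. The injected tumors had 82.1, 50.7 and 216 of Hp with DMSO and 33.9, 113 and 123 with C646. Orm1 was at 0, 1.399 and 3.47 with DMSO and at 0, 2.21 and 3.28 with C646. Orm2 stayed under 0.5 in all 6 injected tumors.

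Of the 8 genes, 5 were higher in every Tumor library than in every Normal one, against 33.1% of the 13031 genes tested in that comparison, and 2 were lower in every Tumor library, against 35.8%; 68.9% of genes did not overlap in either direction. Since the genes were chosen with this contrast in view, nothing is read from these counts. All 8 passed the filter, which asked for 3 of the 6 libraries at 1 FPKM or more, but Saa1, Saa2 and Saa3 passed through the Tumor libraries alone.

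**Figure D1:**
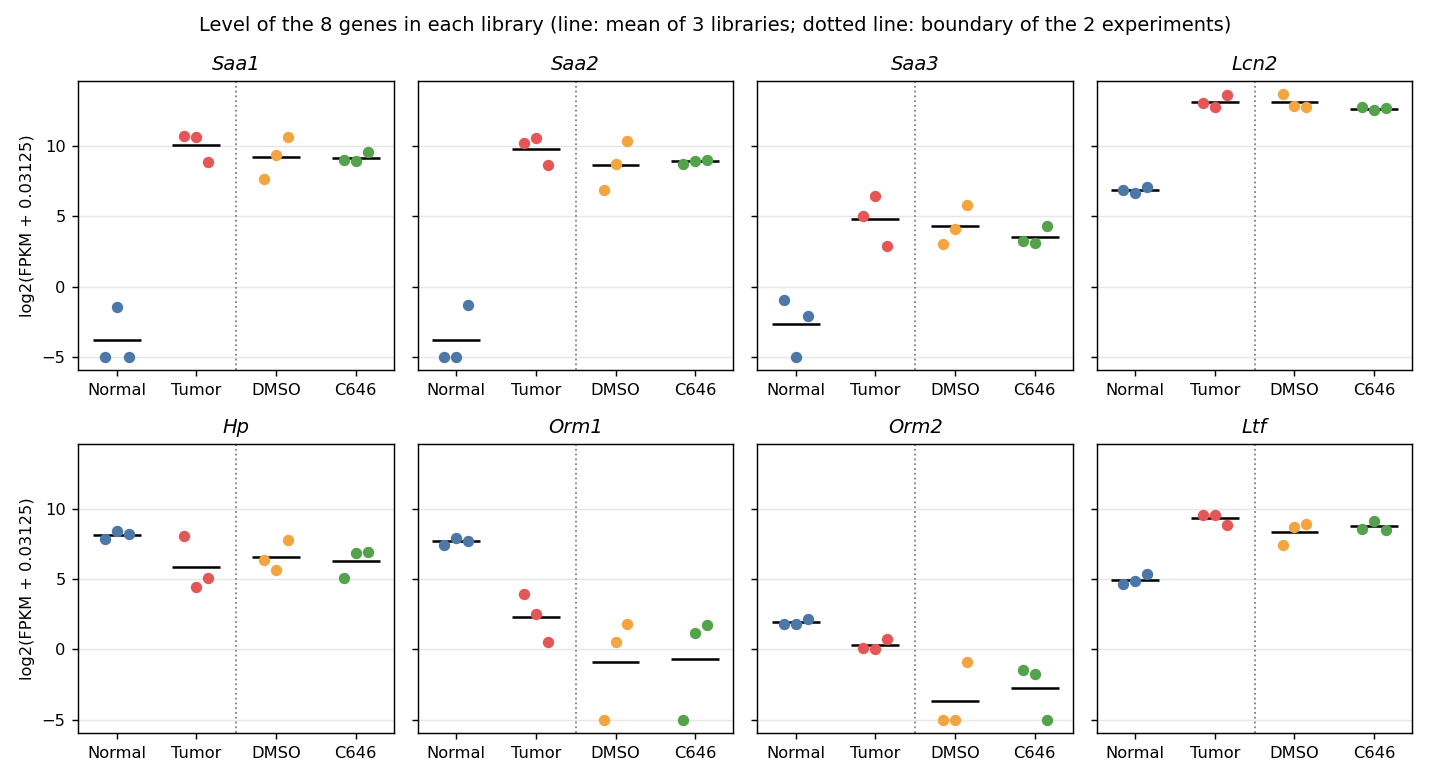
Level of each of the 8 genes as log2(FPKM + 0.03125) on the vertical axis for Normal, Tumor, DMSO and C646; points are libraries and black lines the means of 3. Saa1, Saa2, Saa3, Lcn2 and Ltf lie higher in the 9 tumors than in Normal, Orm1 and Orm2 lie lower, and Hp of Tumor replicate 1 lies among the Normal values; points at the bottom are libraries listed at 0.

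The levels were then set against the cell type markers of the same library, ratios that were chosen after the values were seen. Per 1000 FPKM of summed luminal markers, Lcn2 was between 116 and 219 in Normal, between 1822 and 3486 in Tumor, between 1759 and 3692 with DMSO and between 1783 and 2006 with C646. The gap between Normal and tumors was thus smaller than for the levels, and the groups still did not overlap. Ltf was between 24.2 and 67.4 in Normal and between 126 and 218 in Tumor on the same scale, but DMSO replicate 1, at 47.0, lay within the Normal range. Saa1 was between 0 and 0.712 in Normal and between 56.9 and 460 in the tumors.

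Orm1 and the adipocyte sum were both lower in every tumor than in every Normal library. Among the tumors they did not always go together. C646 replicate 1, with an adipocyte sum of 198, had Orm1 listed at 0, and DMSO replicate 3, with 140, had 3.47. DMSO replicate 1, with the lowest sum of the tumors, 76.8, also had Orm1 listed at 0. Within C646 the order of the tumors was the same for Orm1 and the adipocyte sum. A value of 0 may be a failed estimate. Per 1000 FPKM of summed adipocyte markers, Orm1 was between 6.35 and 6.79 in Normal and between 5.60 and 27.0 in Tumor. It was between 0 and 24.7 with DMSO and between 0 and 4.69 with C646. The Normal range thus lay inside the Tumor and DMSO ranges, while every C646 tumor lay below it. On that scale Hp was between 8.21 and 10.02 in Normal and between 99.95 and 149 in Tumor, without overlap. Orm2, which did not pass 1.66 FPKM in Tumor, was between 0.099 and 0.144 in Normal and between 0.387 and 7.45 in Tumor on that scale. Tumor replicate 1, which had the highest Hp and Orm1 of the untreated tumors, also had the highest adipocyte sum of the 9 tumors, 2671. The part of adipocytes in these levels was not tested.

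**Figure D2:**
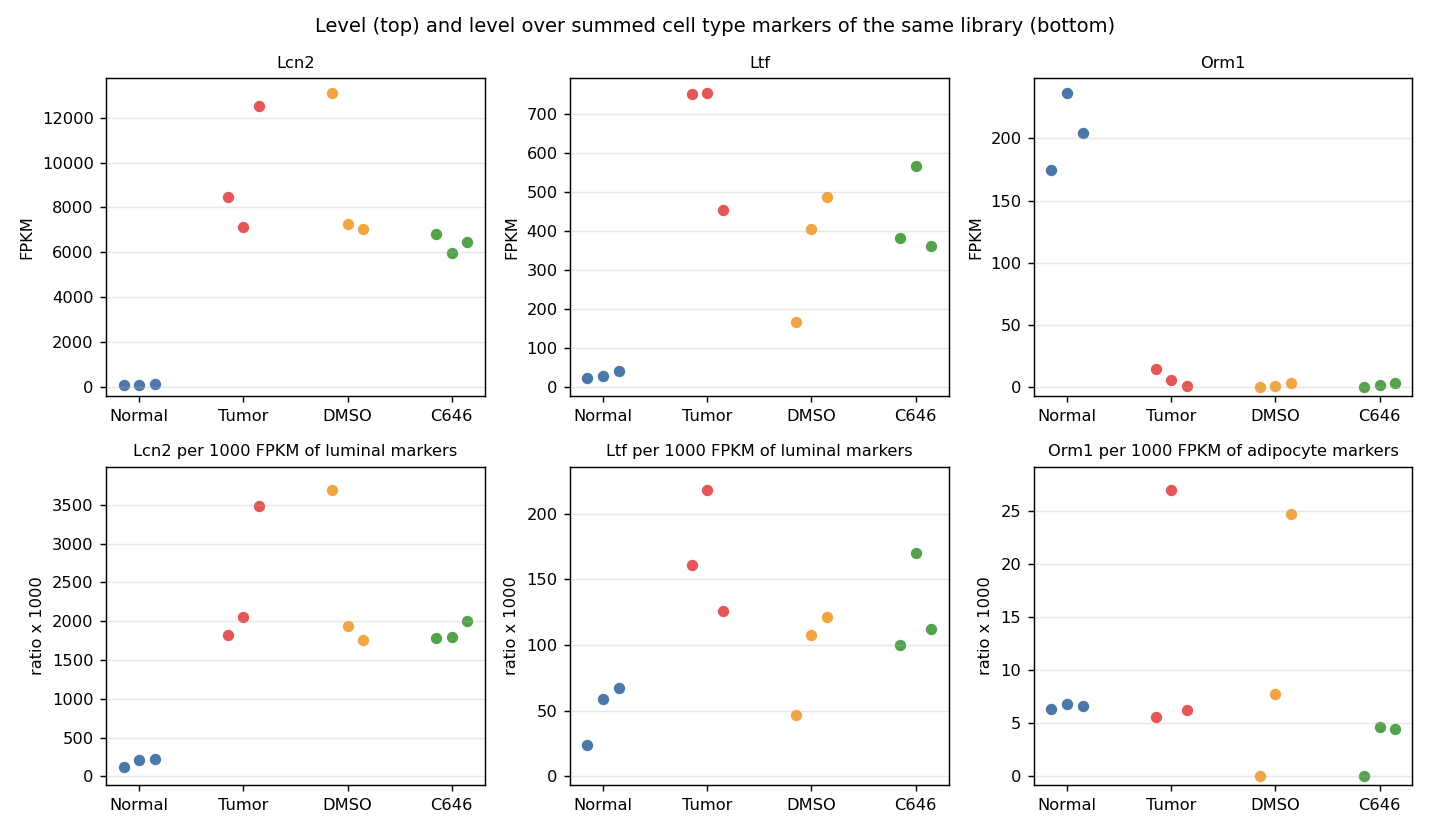
Top row, FPKM of Lcn2, Ltf and Orm1 in each library of the 4 groups; bottom row, the same levels per 1000 FPKM of summed luminal markers (Lcn2, Ltf) or adipocyte markers (Orm1). Lcn2 of the tumors stays above Normal in both rows, and Ltf of 1 DMSO tumor falls among the Normal values in the bottom row. Orm1 of Normal lies within the range of the Tumor and DMSO libraries in the bottom row, and above the C646 libraries.

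The tumors of a group differed widely in serum amyloid A and less in Lcn2. The highest DMSO tumor had 7.69 times the Saa1 of the lowest, the highest Tumor library 3.51 times and the highest C646 tumor 1.51 times. For Lcn2 the same ratios were 1.85, 1.76 and 1.14. The tumor with the most Lcn2 in the Tumor group, replicate 3, had the least Saa1, Saa2, Saa3 and Ltf of that group, and so had DMSO replicate 1 in the DMSO group. In the C646 group replicate 1, highest in Lcn2, was the lowest in Saa2 but the second highest in Saa1, Saa3 and Ltf. The ratio of Lcn2 to Saa1 ran from 4.47 in Tumor replicate 2 to 64.9 in DMSO replicate 1.

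DMSO replicate 3 had the highest Saa1, Saa2, Saa3, Ltf and Hp of its group. It also stood apart in S100a8, a calcium-binding protein gene of neutrophils and of epithelium, at 654 FPKM against 67.8 to 275 in the other 8 tumors, and in Krt5, the basal keratin, at 229 against 8.01 to 79.4. S100a9, the usual partner of S100a8, was at 16.2 there. The summed neutrophil markers of this library, 674, were nearly all S100a8. The part of these cells in the levels of this tumor was not tested.

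**Figure D3:**
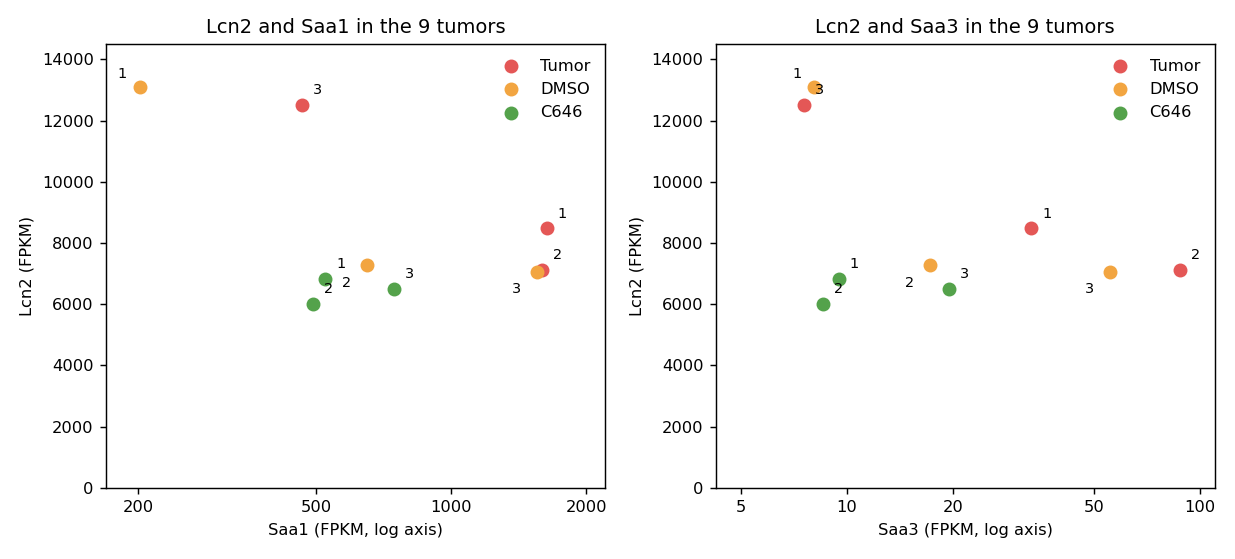
Lcn2 (FPKM, vertical axis) against Saa1 (left) and Saa3 (right; FPKM, log axes) in the 9 tumors, coloured by group and numbered by replicate. Tumor replicate 3 and DMSO replicate 1 stand apart at 12509 and 13090 FPKM of Lcn2 with the lowest Saa1 and Saa3 of their groups. The 3 C646 tumors lie close together in Lcn2, at 5996 to 6816 FPKM, and run from 8.55 to 19.4 FPKM of Saa3.

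The effect of C646 on the 8 genes was tested with limma on log2(FPKM + 0.03125) over 12083 genes with Benjamini-Hochberg adjustment. None of the 7 genes that passed the filter was called, against 0% of all genes; 384 genes had an unadjusted p under 0.05. Orm2 was under 1 FPKM in all 6 libraries and was not tested. The adjusted p-values of the 7 genes lay between 0.990 and 0.999. The intervals show what this experiment could not resolve, since a miss of the threshold does not make the groups alike.

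For Saa1 the log2 difference of C646 from DMSO was -0.03 (95% confidence interval -1.63 to 1.57), and for Saa2 it was 0.26 (-1.55 to 2.07). Each interval spans a fall and a rise of more than 2-fold. For Saa3 it was -0.77 (-2.39 to 0.86), with 12.5 ± 6.02 FPKM in C646 against 27.0 ± 25.3 in DMSO, and the groups overlapped. Without DMSO replicate 3, the tumor with high S100a8 and Krt5, the differences were 0.67 for Saa1, 1.11 for Saa2 and -0.02 for Saa3. Without DMSO replicate 1 they were -0.80, -0.61 and -1.41, so the direction for Saa1 and Saa2 changed with the DMSO tumor left out.

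Lcn2 was the gene whose groups did not overlap. Its 3 C646 tumors, at 5996 to 6816 FPKM, all lay below the 3 DMSO tumors, at 7059 to 13090, where 4.52% of all genes tested were lower without overlap, 4.04% higher and 8.56% either. The ratio of means was 0.704, and the log2 difference was -0.45 (-1.22 to 0.32; unadjusted p = 0.212, adjusted p = 0.990, limma). Per 1000 FPKM of summed luminal markers the groups overlapped, with C646 between 1783 and 2006 inside the DMSO range of 1759 to 3692. The gap between the groups was narrow, since the lowest DMSO tumor had 1.04 times the Lcn2 of the highest C646 tumor. After quantile normalization, which gives every library the same distribution, the difference was 0.05, of the opposite sign. Lcn2 ranked 1 in every injected tumor but DMSO replicate 3, where it ranked 2. The normalized difference followed from these ranks alone and carries no information on the gap in level. The coefficient of variation was 6.42% in C646 and 37.5% in DMSO.

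For Ltf the log2 difference was 0.42 (-0.55 to 1.39) and for Hp -0.31 (-1.87 to 1.25), both with overlapping groups. Orm1, at 0 in 1 tumor of each group, had a difference of 0.19 with an interval from -5.38 to 5.76, which leaves its response unresolved.

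**Figure D4:**
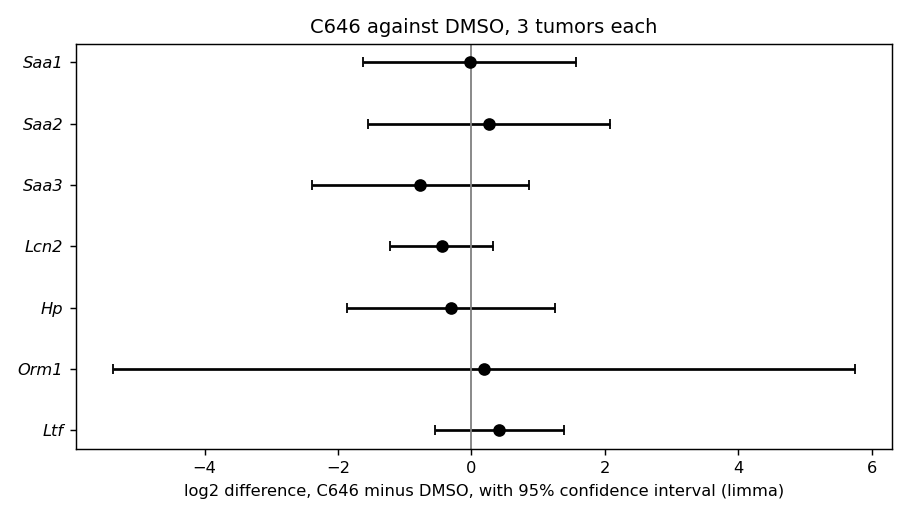
Log2 difference of C646 from DMSO (horizontal axis) for the 7 genes tested; points are limma estimates from 3 tumors in each group and bars their 95% confidence intervals. Every interval includes 0, and that of Orm1 is the widest, from -5.38 to 5.76.

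Other genes of the acute phase were counted in 4 lists. In Tumor against Normal, 60.5% of the 13031 genes tested were called at an adjusted p under 0.05 (limma), 28.8% higher and 31.7% lower, and the median log2 difference was -0.02. Of 28 other acute-phase genes, 25 had a row of their own and 14 were tested, of which 7 rose and 7 fell, with a median of 0.49. Chil1, a chitinase-like protein, rose by 5.76 on the log2 scale, Pigr, the transporter of polymeric immunoglobulin, by 4.38, Lbp, which binds bacterial lipopolysaccharide, by 3.61 and Lrg1, a leucine-rich glycoprotein, by 2.99. Pigr was under 1 FPKM in all 3 Normal libraries and passed the filter through Tumor alone.

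Those that fell included Orm3, the orosomucoid between Orm1 and Orm2, at -6.88, the complement component C3 at -4.41, the fibrinogen chain Fgb at -3.62 and the protease inhibitor Serpina3m at -3.44. Orm3 was at 8.46 to 16.5 FPKM in Normal, at 0.853 in Tumor replicate 1 and listed at 0 in every other tumor. Fgb did not pass 1.92 FPKM in any library. Orm3, Fgb and Serpina3m reached 1 FPKM in Normal alone and passed the filter through that group, so only a fall could be called. Without Normal replicate 1, 2 or 3, 11 genes of the list were tested in place of 14, and 4, 4 and 3 fell in place of 7. C-reactive protein (Crp), serum amyloid P (Apcs) and fibrinogen alpha (Fga), which the liver makes, did not reach 1 FPKM in any library. Fgg, the gamma chain of fibrinogen, was detected, at 3.29 to 6.21 FPKM in Normal and 0.131 to 1.31 in Tumor. It was called lower (log2 difference -2.93, adjusted p = 0.0150, limma) and reached 4.88 FPKM in DMSO replicate 2.

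Of 36 cytokine, receptor and transcription factor genes of acute-phase signalling, 29 were tested, and 7 rose while 15 fell, with a median of -0.68. Among those that fell, oncostatin M (Osm) passed the filter through Normal alone, so only a fall could be called. Cebpb, a C/EBP factor, rose by 2.39, the interleukin 1 receptor accessory protein Il1rap by 2.11, the oncostatin M receptor Osmr by 1.18 and Stat3 by 0.84. The interleukin 6 receptor Il6ra was lower by a log2 difference of -3.13 and its signalling partner Il6st by -2.84, the interleukin 1 receptor Il1r1 by -2.69 and the tumor necrosis factor receptor Tnfrsf1b by -2.63. Il6 itself did not pass 0.301 FPKM in any library, and Il17a and Il22 were listed at 0 in all 12. The list thus held called genes in both directions along the interleukin 6 and interleukin 1 pathways.

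Of 13 genes for receptors of the 8 proteins, 9 were tested, and 3 rose and 3 fell. Slc22a17, a lipocalin 2 receptor, rose by 1.24, the ATP receptor P2rx7 by 0.89 and Tlr2, a receptor of serum amyloid A, by 0.75. Cd36, a scavenger receptor that adipocytes also express, was lower with a difference of -6.97, Cd163, the macrophage receptor of haptoglobin-hemoglobin, with -3.47 and Lrp1 with -1.70. Cd163 passed the filter through Normal alone. Lrp2, another lipocalin 2 receptor, stayed at or under 0.102 FPKM.

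Of 15 genes for iron and heme handling, 12 were tested, with 3 higher and 5 lower. Trf, the plasma iron carrier transferrin, rose by 3.95, ceruloplasmin (Cp) by 2.65 and the transferrin receptor Tfrc by 2.25. Slc11a1, a metal transporter of phagocytes, differed by -1.29, the iron exporter Slc40a1 by -1.27, the ferrireductase Steap3 by -0.98 and the iron-regulated aconitase Aco1 by -0.87. The B lymphocyte markers, led by Cd79a and Cd79b, summed to between 239 and 303 FPKM in Normal and under 0.85 in the tumors, the endothelial markers, led by Pecam1 and Cdh5, to between 122 and 152 and between 17.6 and 48.7, and the macrophage markers, led by C1qa and C1qb, to between 515 and 701 and between 296 and 562. The basal markers other than Krt14, Krt5 among them, summed to between 177 and 300.3 in Normal and between 39.6 and 363 in the tumors. Krt14, which had a row of its own only in the untreated libraries, was between 26.4 and 49.1 in Normal and between 75.4 and 122 in Tumor. The part of these cells in the lists was not tested.

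**Figure D5:**
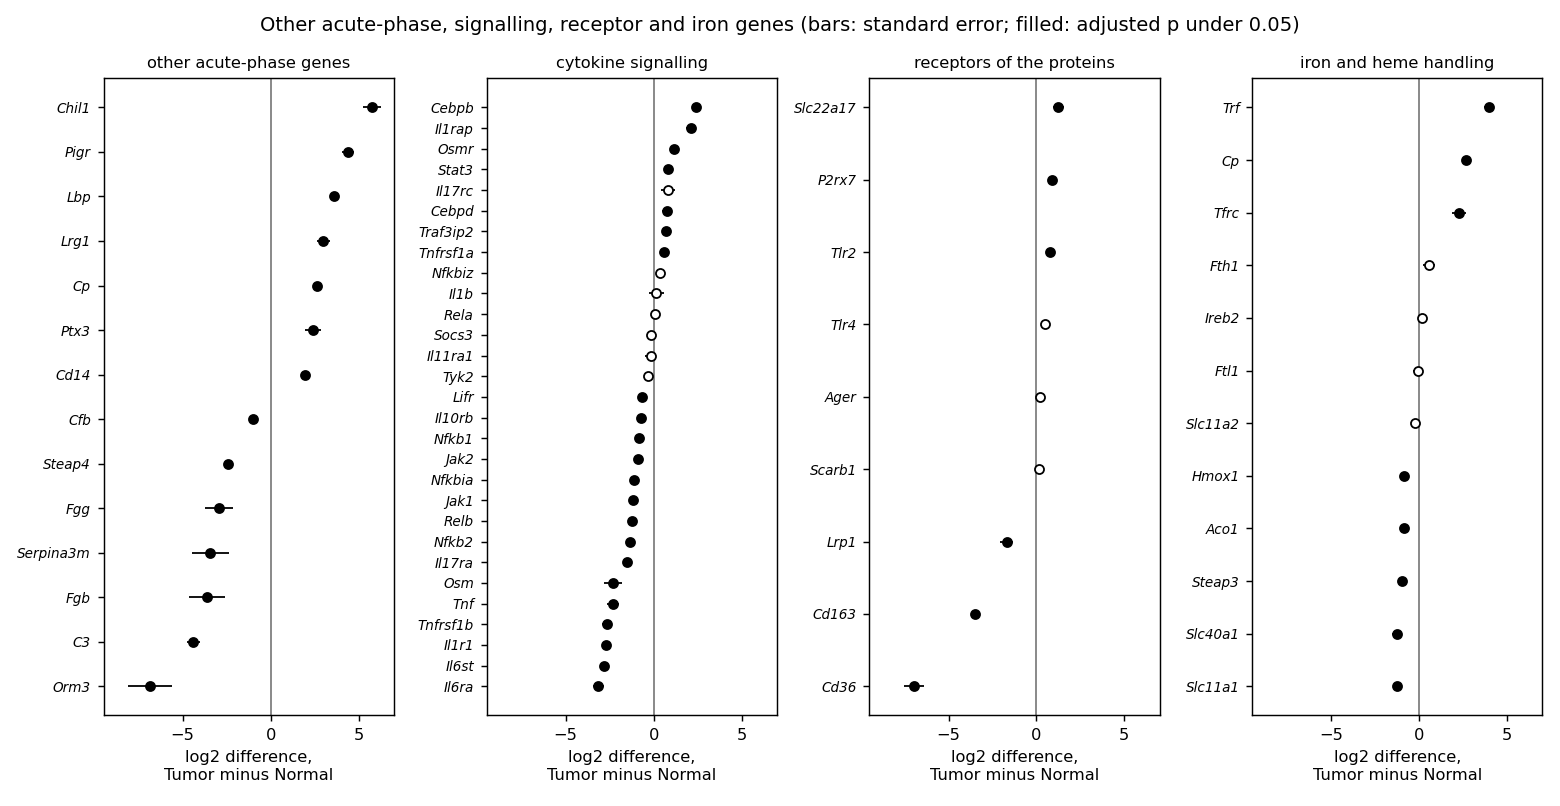
Log2 difference of Tumor from Normal (horizontal axis) for the tested genes of the 4 lists, with standard errors from limma; filled points have an adjusted p under 0.05. Cebpb leads the signalling genes at 2.39 and Il6ra ends them at -3.13, and the lists hold called genes on both sides of 0.

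In C646 against DMSO none of the 62 list genes tested was called, nor was any other gene. The genes with the smallest p in each list had unadjusted values of 0.0423 for Il1rn (log2 difference -1.28), 0.0661 for C4b (-0.77), 0.0126 for Cebpd (-0.50), 0.0184 for Lifr (0.69), 0.0157 for Cd36 (1.57), 0.0906 for P2rx7 (0.37), 0.0469 for Aco1 (0.29) and 0.218 for Fth1 (-0.50), all with an adjusted p of 0.990 (limma). Il1rn is the interleukin 1 receptor antagonist, Cebpd a C/EBP factor and Lifr the receptor of leukemia inhibitory factor. The adipocyte markers summed to between 198 and 733 in C646 and between 76.8 and 180 in DMSO, without overlap, and the luminal markers to between 3233 and 3822 and between 3546 and 4014.

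Genes whose variation within groups was most like that of 4 members were found by Pearson r of the deviations from group means over 12 libraries, among 13232 genes, as a description. For Lcn2 they were Ifih1 (0.959), Aak1 (0.957) and Sptan1 (0.951), and for Ltf Otop1 (0.938), Arhgap10 (0.929) and Chml (0.922). For Saa1 they were Ncln (0.940), Alad (0.931) and Twf2 (0.931), and for Saa2 Ssbp1 (0.942), Apool (0.922) and the joined row of Glud1 and Gm3219 (0.899). For Saa1 and Saa2 this measure rested on single Normal values of 0.345 and 0.372 FPKM, and their own r was 0.172. Over the 9 tumors alone, a choice made after the values were seen, the r of Saa1 and Saa2 was 0.980, that of Saa1 and Saa3 0.907 and that of Saa1 and Lcn2 -0.898. From the highest r with Saa1 down, Saa2 ranked 3, Saa3 150 and Lcn2 12038 among 12198 genes. Many other genes thus had values beyond those of Saa3 and Lcn2. Each library contributes to all genes, so libraries that differ in depth or composition enter every such value.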

How the data were processed

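RNA was taken from 12 libraries in 4 groups of 3, grouped by the titles in the labels, with a poly(A) selection and a kit that does not mark strand. The authors mapped the reads to mm10 with TopHat2 2.1.1 and deposited FPKM per gene from Cufflinks 2.2.1 (versions from the submitters' processing notes), in 1 file per library. FPKM divides by gene length and library size, so values are not counts, and a value in a library moves with what else is abundant in it. Files of Normal and Tumor had 26220 rows, and the 1837 unnamed rows among them, with 3.41% to 4.56% of the FPKM, were dropped, and those of DMSO and C646 had 24304 rows. Levels were therefore set side by side across the 2 experiments without a test.

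Rows of the same name were summed (Orm2 had 2 rows in the Normal and Tumor files). Differences were fitted with limma 3.58.1 in R 4.3.3 (lmFit, eBayes with trend) on log2(FPKM + 0.03125), separately for each comparison, keeping genes that reached 1 FPKM in 3 or more of the 6 libraries, with Benjamini-Hochberg adjustment over all genes tested and a threshold of 0.05. A fold change on this scale understates the change of low genes. The fit was tested on simulated data. The p-values set each difference against the spread between the 3 replicates of a group, which eBayes adjusts with that of the other genes. In Normal that spread is between pools of 3 mice and not between single mice. Gene positions came from GENCODE vM21 and promoter windows from RefSeq, searched on both strands. Other computations used Python 3.11.15, numpy 2.4.6, pandas 2.3.3, scipy 1.17.1, matplotlib 3.10.9 and Biopython 1.88.

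The 8 genes, the lists and the markers were chosen with earlier results of these data known. Names outside the 8 genes follow a rule: from each list, up to 4 called genes in each direction with the largest difference, or the 2 with the smallest p where none was called; the 2 most abundant markers of each cell type; and the 3 genes most like each of 4 members. Other genes (S100a9, Elane, Ngp, Camp, Mmp9, Cxcr2, Ttr, Gapdh, Actb, Saa4, Crp, Apcs, Fga, Fgg, Osm, Il6, Il17a, Il22 and Lrp2) were named after their values were seen. A list gene needed a row of its own, and rows that join several names were not used. Alternatives were pseudocounts of 1 and 0.25, no filter, median-ratio scaling, quantile normalization, a replicate block, leaving out each library, 1 fit of all 12 libraries, no trend and the highest row of each name.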

Additional observations from a re-analysis of the deposited data

How the results depend on the processing

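In Tumor against Normal, none of the member differences changed sign under any alternative that gave a value. Those of Saa1, Saa2 and Saa3 depended on the pseudocount and are no fold changes: 13.86, 13.57 and 7.47 on the log2 scale with 0.03125, 11.64 and 11.37 (Saa1, Saa2) with 0.25, and 9.92, 9.65 and 4.60 with 1. Orm2, at -1.62, was -1.11 with a pseudocount of 1, -0.99 after quantile normalization and -2.56 with its highest row, and Lcn2, at 6.29, was 5.71 after quantile normalization. Without any 1 Tumor library, Saa1, Saa2 and Saa3 failed the filter and had no value. Leaving out single libraries gave 13.26 to 15.06 for Saa1, 12.96 to 14.80 for Saa2, 6.29 to 8.33 for Saa3, 6.06 to 6.46 for Lcn2, -3.43 to -1.60 for Hp, -6.17 to -4.47 for Orm1, -1.85 to -1.50 for Orm2 and 4.20 to 4.60 for Ltf. Genes lower in Tumor numbered 4128, and 2789, 2686 and 2570 without Normal replicates 1, 2 and 3 (range 2570 to 4172), when 12056, 12077 and 12077 genes were tested in place of 13031, while genes that were higher numbered 3030 to 3373 with a library left out against 3758. Of the other acute-phase genes, 4, 4 and 3 fell without Normal replicates 1, 2 and 3 against 7, with 11 tested in place of 14. Quantile normalization moved the median of all genes from -0.02 to 0.12 and gave 4348 higher and 3640 lower genes against 3758 and 4128, and 5 receptors that rose against 3. The list genes together, 19 higher and 30 lower, gave 17 to 18 and 23 to 30 with a library left out.

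In C646 against DMSO no member passed the threshold under any alternative (lowest adjusted p 0.717). After quantile normalization Saa1 (0.18), Lcn2 (0.052) and Orm1 (-0.53) changed sign. The value of Lcn2 followed from its ranks alone, 1 in every injected tumor but DMSO replicate 3, where it was 2. For Saa1 and Orm1 the cause was not tested. With a library left out, the differences ran from -0.80 to 0.67 for Saa1, -0.61 to 1.11 for Saa2, -1.41 to -0.02 for Saa3, -0.60 to -0.16 for Lcn2, -0.77 to 0.29 for Hp, -1.86 to 2.34 for Orm1 and -0.053 to 0.72 for Ltf. Signs changed without DMSO replicate 1 (Saa2, Orm1, Ltf), DMSO replicate 2 (Saa1), DMSO replicate 3 (Saa1, Hp), C646 replicate 1 (Saa1, Hp), C646 replicate 2 (Saa1, Orm1) and C646 replicate 3 (Orm1). Of all genes, 0 were called, and 1 (higher) in 1 fit of the 12 libraries and 12 (lower) without DMSO replicate 2. The main fits did not pair samples by replicate number, and correlations over 3 libraries of a group cannot exclude a pairing. Deviations of same-numbered libraries correlated at -0.04, -0.10 and 0.01 in Normal and Tumor. In DMSO and C646 they correlated at 0.17, 0.07 and 0.11. There DMSO replicates 1 and 3 correlated best with the C646 library of their own number, and DMSO replicate 2 with C646 replicate 3. The replicate block gave 3439 higher and 3827 lower genes in Tumor and none in C646. Without read counts, the precision of values near 0 is unknown.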
